A study of Mus musculus with 2 samples.

Results

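Migratory dendritic cells of the mouse lung were chosen by the UMI counts of 5 genes in a single-cell RNA library, and 51 of 8194 kept lung barcodes met the rule (0.622%, exact 95% interval 0.464 to 0.818). Both libraries of the series together held 10437 kept barcodes. UMIs are unique molecular identifiers, which count RNA molecules. Barcodes under 200 genes, or with over 10% of UMIs from mitochondrial genes, were left out. A member had at least 2 UMIs of Fscn1, at least 1 of Ccr7, at least 2 of H2-Aa and none of Cd3e or Cd79a. These values chose the cells, so the levels of the 5 genes are given as a description only. The reference was the 1253 other kept lung barcodes with at least 5 UMIs of H2-Aa and none of Fscn1 or Cd79a, which are antigen-presenting cells of several kinds.

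The cells came from lungs of TB mice with the genotype label CAC mouse model, and the meaning of either short name was not assumed. No label gives these mice a treatment, an age, a sex or a number of animals. Digested tissue was passed over CD45 magnetic beads, which bind leukocytes, before 5' library preparation on the 10x Genomics v2 kit. The only other library was from gastrocnemius muscle of mice with the same labels, and other muscle samples, which the design text places under antibodies to PD-L1 or CD8a or under control IgG, are not analysed here. That text calls the model tumor bearing, and the series title names cathepsin L as a target.

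Conventional dendritic cells take up antigen in tissues, mature, and carry it through lymph vessels to lymph nodes, where they present it to T cells. Maturation switches on the chemokine receptor CCR7, which guides cells toward lymph nodes, and the actin-bundling protein fascin (Fscn1), while uptake of new antigen is shut down. In tumour-bearing tissue, cells of this kind also carry ligands that restrain T cells, among them PD-L1 (Cd274), and have been described as mature dendritic cells rich in regulatory molecules. Whether the lung cells moved was not measured, and the word migratory refers to the genes they carried.

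The lung library held 34751225 UMIs over 8481 barcodes and the muscle library 14056163 over 5547. There was 1 library per tissue, so no test between groups of cells was possible and no p-value is given. Intervals in brackets are exact 95% intervals that hold counting error only, not the spread between mice. Members held 417156 UMIs, with a lowest, median and highest of 1163, 7380 and 20142 per cell, against a median of 7130 in the reference. Their median mitochondrial share was 1.82%. The libraries shared 64 barcodes, of which 0 were members. In muscle 0 of 2243 kept barcodes met the rule, which allows a share of up to 0.134%. There 122 kept barcodes had at least 2 UMIs of Fscn1 and 12 had Ccr7, but 0 had both.

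The levels of 3 markers outside the rule were read first. They were chosen with earlier results of these data known, so they describe the members and are no independent check of the name. Levels are CPM, the summed UMIs of a gene in a group of cells per 1000000 UMIs of that group. Comparison groups were taken from the reference by further genes. Cells with at least 2 UMIs of Xcr1 or Clec9a are called cDC1-gated (62 cells), those with at least 2 of Cd209a or Mgl2 cDC2-gated (323 cells) and those with at least 2 of C1qa or C1qb macrophage-gated (333 cells). The cDC2-gated cells held Flt3, the growth factor receptor of dendritic cells, at 6.76 CPM against 275 CPM in the cDC1-gated cells, and the name of that gate refers to its 2 genes only. B cells (675, by Cd79a), T cells (387, by Cd3e) and neutrophils (1150, by Csf3r without H2-Aa) served as further groups, at median depths of 2374, 3997 and 2356.5 UMIs.

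Ccl22, a chemokine that draws CCR4-bearing T cells, was read in 41 of 51 members, at 0, 7 and 108 UMIs in the lowest, median and highest cell. It stood at 2383 CPM (2237 to 2536) in members, 73.9 CPM in the reference, 37.0 CPM in cDC1-gated, 96.6 CPM in cDC2-gated and 2.03 CPM in B cells. Cacnb3, a subunit of voltage-gated calcium channels, had 0, 5 and 19 UMIs per member and was read in 42 of them. Its level was 683 CPM (606 to 767), against 3.32 CPM in the reference and between 1.19 CPM (macrophage-gated) and 5.48 CPM (cDC1-gated) in the other groups. Both genes were thus higher in members than in every group compared, as the plot of marker genes by cell shows. Cd274 was not. It was read in 45 members at 0, 4 and 22 UMIs and stood at 638 CPM (563 to 719), against 298 CPM in the reference and 941 CPM in neutrophils.

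**Figure D1:**
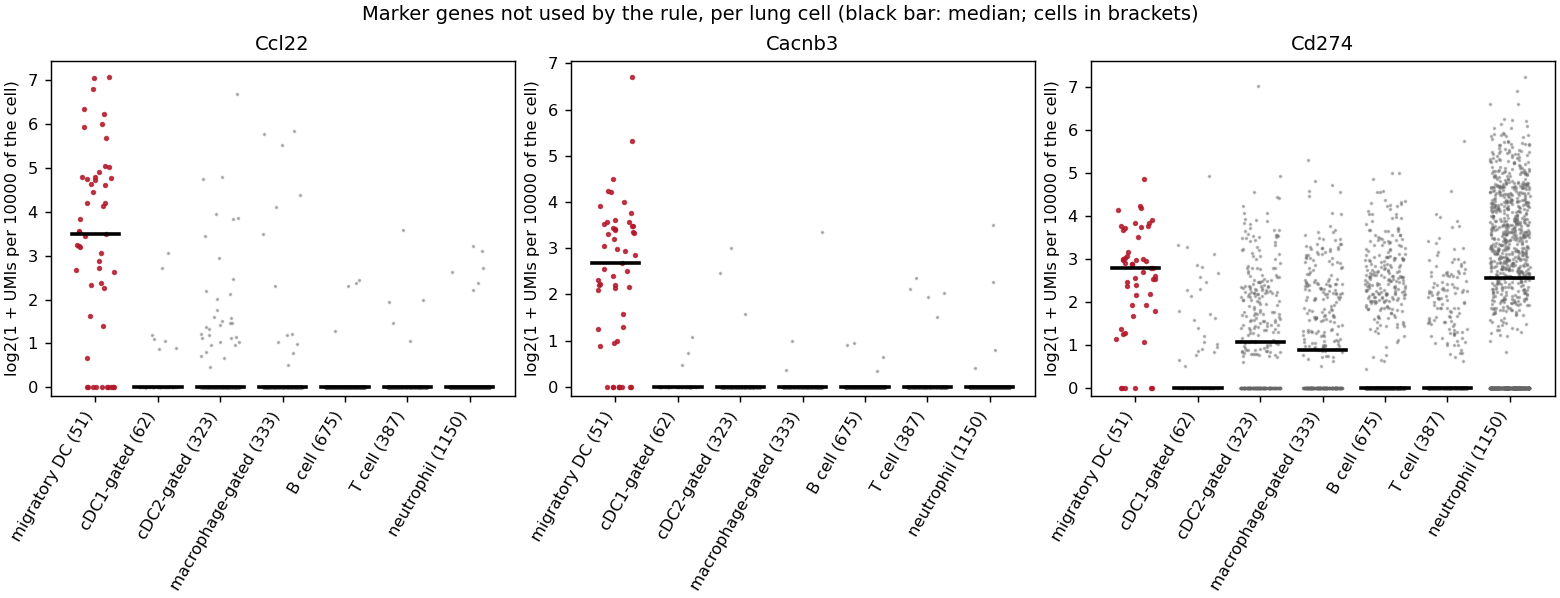
Ccl22, Cacnb3 and Cd274 in each lung cell, as log2(1 + UMIs per 10000 UMIs of the cell), in members and 6 comparison groups; each point is a cell and the black bar is the group median. The medians of Ccl22 and Cacnb3 lie above 0 in members alone, while Cd274 is also spread widely over neutrophils.

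A gene was called higher or lower by size alone. Its pooled ratio had to be at least 4-fold, with an interval beyond 2-fold and at least 30 counts in the higher group. Of 10915 genes with at least 30 counts over members and reference, 187 were higher (1.71%) and 389 lower (3.56%), and the median log2 ratio of all of them was -0.16. Against cDC1-gated cells 172 of 5139 genes were higher (3.35%) and 327 lower (6.36%). Against cDC2-gated cells 178 of 8554 were higher (2.08%) and 365 lower (4.27%). The same members enter all these comparisons, and the gated cells are drawn from the reference, so the counts are not independent.

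The 10 genes with the highest ratio over the reference were, in order, Nudt17, Cacnb3, Npr1, Slc4a8, Syn3, Adcy6, Il4i1, Gm35330, Slc22a23 and Scin. Several of them are best known outside immunity: Npr1 is the receptor of atrial natriuretic peptide, Slc4a8 a bicarbonate transporter, Syn3 a synapsin, Adcy6 an adenylyl cyclase and Scin an actin-severing protein. Nudt17, of the nudix hydrolase family, stood at 206 CPM (165 to 255) in members and 0.781 CPM in the reference, or 8.04 (7.001 to 9.30) as a log2 ratio. It was read in 31 members. Npr1 stood at 91.1 against 0.586 CPM, from 38 UMIs in 18 members, and Syn3 at 156 against 1.66 CPM. All 10 were also called higher against the cDC1-gated and the cDC2-gated cells. The calls of Npr1 and Gm35330 were lost when members needed at least 5 UMIs of H2-Aa, which left 38 cells, and that of Gm35330 also with at least 3 UMIs of Fscn1.

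Among the 10 genes with the lowest ratio were Tbxas1, Ccr2, Ccl2, Sirpb1c, F7, Mrc1, Arg1, Ccl24 and Ctsk. Ccr2, the receptor that brings monocytes out of the bone marrow, was read as 1 UMI in all members, against 213 CPM in the reference, 111 CPM in cDC1-gated and 248 CPM in cDC2-gated cells. Its log2 ratio to the reference was -6.47 (-11.77 to -3.99). Tbxas1, thromboxane synthase, also had 1 UMI, a log2 ratio of -6.66 (-11.97 to -4.18). Arg1, the arginase of alternatively activated macrophages, stood at 24.0 against 896 CPM (log2 ratio -5.22, -6.29 to -4.35) and at 118 CPM in the cDC1-gated cells. Macrophage-gated cells held it at 1449 CPM. The 8 monocyte and macrophage markers summed to 0, 2 and 168 UMIs in the lowest, median and highest member, with 7 of them read and Fcgr1 at 0. In the reference these sums were 0, 32 and 1096 UMIs, and their part in the lower genes was not tested.

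Of 14 measured genes of migration and the cytoskeleton outside the rule, 6 were called higher and 0 lower, with a median log2 ratio of 1.45. The 6 include the marker Cacnb3 given above, and the list was chosen with earlier results of these data known. Over all genes tested against the reference 1.71% were higher and 3.56% lower, with a median of -0.16. The counts of every list below are to be read beside these shares. Fscn1 itself was at 2, 9 and 85 UMIs in the lowest, median and highest member and Ccr7 at 1, 9 and 73, as the rule required. Tbc1d4, a Rab GTPase-activating protein, stood at 921 CPM (831 to 1017) against 44.4 CPM in the reference, and was read in 45 members. Marcksl1, an actin-binding substrate of protein kinase C, stood at 734 against 64.3 CPM, and its relative Marcks at 1024 against 201 CPM. The adaptor Samsn1 and the class I myosin Myo1g were higher as well, at log2 ratios of 2.98 (2.80 to 3.15) and 2.52 (2.32 to 2.71). Adam8, Vcl, Rasgrp1 and Cxcr4 had intervals that included 0. Samsn1 was also read in neutrophils, at 822 CPM against 861 CPM in members.

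Of 12 measured chemokine genes 2 were higher, 5 lower and 5 neither, and the median log2 ratio was -1.28. The higher pair was Ccl22 (log2 ratio 5.01, 4.87 to 5.15) and Ccl5, a chemokine that attracts T cells and monocytes (5.61, 5.46 to 5.77). Ccl5 was uneven among members: 36 of 51 had it, the median was 6 UMIs, and 230 of its 1041 UMIs lay in 1 cell. Without that cell its level was 2005 CPM in place of 2495 CPM, and it stood at 51.0 CPM in the reference, 12.04 CPM in cDC2-gated cells and 1141 CPM in T cells. The rule set Cd3e to 0, and T cells were gated on it. Of the 6 other T cell markers Cd8a had 10 UMIs, in 7 members, Trac 3, Cd3d 2 and Cd4 1, while Cd3g and Trbc2 had 0. All 6 together had 16 UMIs, at most 5 in a cell (38.4 CPM, against 54.1 CPM in the reference and 2199 CPM in T cells).

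Ccl17, the other CCR4 ligand, did not share the pattern of Ccl22. It had 0, 9 and 177 UMIs in the lowest, median and highest member and stood at 3052 CPM, against 1571 CPM in the reference and 2172 CPM in cDC2-gated cells (log2 ratio against the latter 0.49, 0.40 to 0.58). Of the 51 members 36 had both Ccl22 and Ccl17, 5 had Ccl22 alone, 6 had Ccl17 alone and 4 had neither. The lower genes were the inflammatory chemokines Ccl2, Ccl3, Ccl4, Ccl6 and Ccl9, which attract monocytes and other myeloid cells. Ccl6 stood at 261 CPM (215 to 315) against 4090 CPM (log2 ratio -3.97, -4.25 to -3.70), and at 620.3 CPM in cDC1-gated cells. Ccl3 lost its call with scored doublets removed and with the pooled dendritic cell gates as reference. Cxcl9 and Cxcl2 rested on few cells: all 42 UMIs of Cxcl9 and 169 of 279 UMIs of Cxcl2 were in 1 cell each. The 5 neutrophil markers, which mark the cells with the highest Cxcl2 here, summed to 283 UMIs in members, 0 to 76 per cell (678 CPM), and to 1043 CPM in the reference, 0 to 514 per cell.

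Maturation and costimulation genes had 3 of 10 measured genes higher (Cd40, Il15ra and Cd200) and 0 lower, with a median log2 ratio of 1.90. Cd40, through which T cells license dendritic cells, was read in 27 members and stood at 173 CPM (135 to 217) against 16.4 CPM in the reference and 46.7 CPM in B cells. Il15ra, which presents interleukin 15 to T and NK cells, had a ratio of 3.56 (2.96 to 4.14) and lost its call with at least 5 UMIs of H2-Aa required. The classical costimulators differed less. Cd80 stood at 420 against 199 CPM (log2 ratio 1.08, 0.84 to 1.30) and Cd86 at 467 against 249 CPM (0.91, 0.69 to 1.12). Against cDC2-gated cells these ratios were 0.59 (0.35 to 0.83) and 0.47 (0.24 to 0.69). Cd83, which stabilises surface MHC class II and CD86, stood at 623 against 245 CPM. Tnfsf4 (OX40 ligand) had 29 UMIs, just under the 30 the call asks for. It was read in 6 members, at 69.5 CPM against 0.293 CPM in the reference, and 13 of its UMIs were in 1 cell. Cd70 had 10 UMIs in 5 members.

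Inhibitory ligands and regulators had 5 of 14 measured genes higher and 3 lower, with a median log2 ratio of 1.29. Il4i1, a secreted amino acid oxidase that restrains T cells, was read in 44 of 51 members, at 0, 2 and 27 UMIs in the lowest, median and highest. It stood at 513 CPM (447 to 587) against 6.64 CPM in the reference (log2 ratio 6.27, 5.87 to 6.69) and 1.37 CPM in cDC1-gated cells. Aldh1a2, an enzyme that makes retinoic acid, was read in fewer cells. It was found in 24 members, with a median of 0 and a highest of 54 UMIs, and stood at 496 CPM (431 to 569) against 9.86 CPM. Without the highest cell its level was 382 CPM. Cd200, whose receptor inhibits myeloid cells, stood at 141 against 6.45 CPM and was read in 21 members. It stood at 45.9 CPM in B cells. Fas, a death receptor, and Socs1, a brake on cytokine signalling, were also called higher, at log2 ratios of 2.85 (2.34 to 3.34) and 2.34 (1.86 to 2.79). Of the 48 UMIs of Socs1 20 were in 1 cell (69.9 CPM without it), and over cDC1-gated cells its ratio was 0.37 (-0.20 to 0.93). The lower genes were Lgals9, its receptor Havcr2 (TIM-3) and Vsir (VISTA). Socs1 and Vsir fell short of 4-fold with the pooled dendritic cell gates as reference, at 1.84 and -1.99, and Havcr2 did with the mean of per-cell CPM.

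The ligands of PD-1 were above the reference but short of 4-fold. The log2 ratio of Cd274 was 1.10 (0.91 to 1.28) over the reference, 1.72 (1.42 to 2.03) over cDC1-gated and 1.02 (0.82 to 1.21) over cDC2-gated cells. Over all processing alternatives it ranged from 1.03 to 1.28. Pdcd1lg2 (PD-L2) stood at 254 CPM (208 to 307) against 91.6 CPM in the reference and 150 CPM in cDC2-gated cells. Both ligands were read in 33 members, Cd274 alone in 12, Pdcd1lg2 alone in 2 and neither in 4. Shares of cells depend on depth, so cells were also thinned to 2000 UMIs, and cells with fewer were left out. This kept 48 of 51 members, 1037 of 1253 reference cells, 735 of 1150 neutrophils and 437 of 675 B cells. At 2000 UMIs Cd274 was read in 70.8% of members, 32.4% of the reference, 58.5% of neutrophils and 30.2% of B cells. Before thinning, over all cells of each group, the shares were 88.2%, 53.6%, 61.2% and 34.5%. Median depth was then 7380 UMIs in members, 2356.5 in neutrophils and 2374 in B cells.

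**Figure D2:**
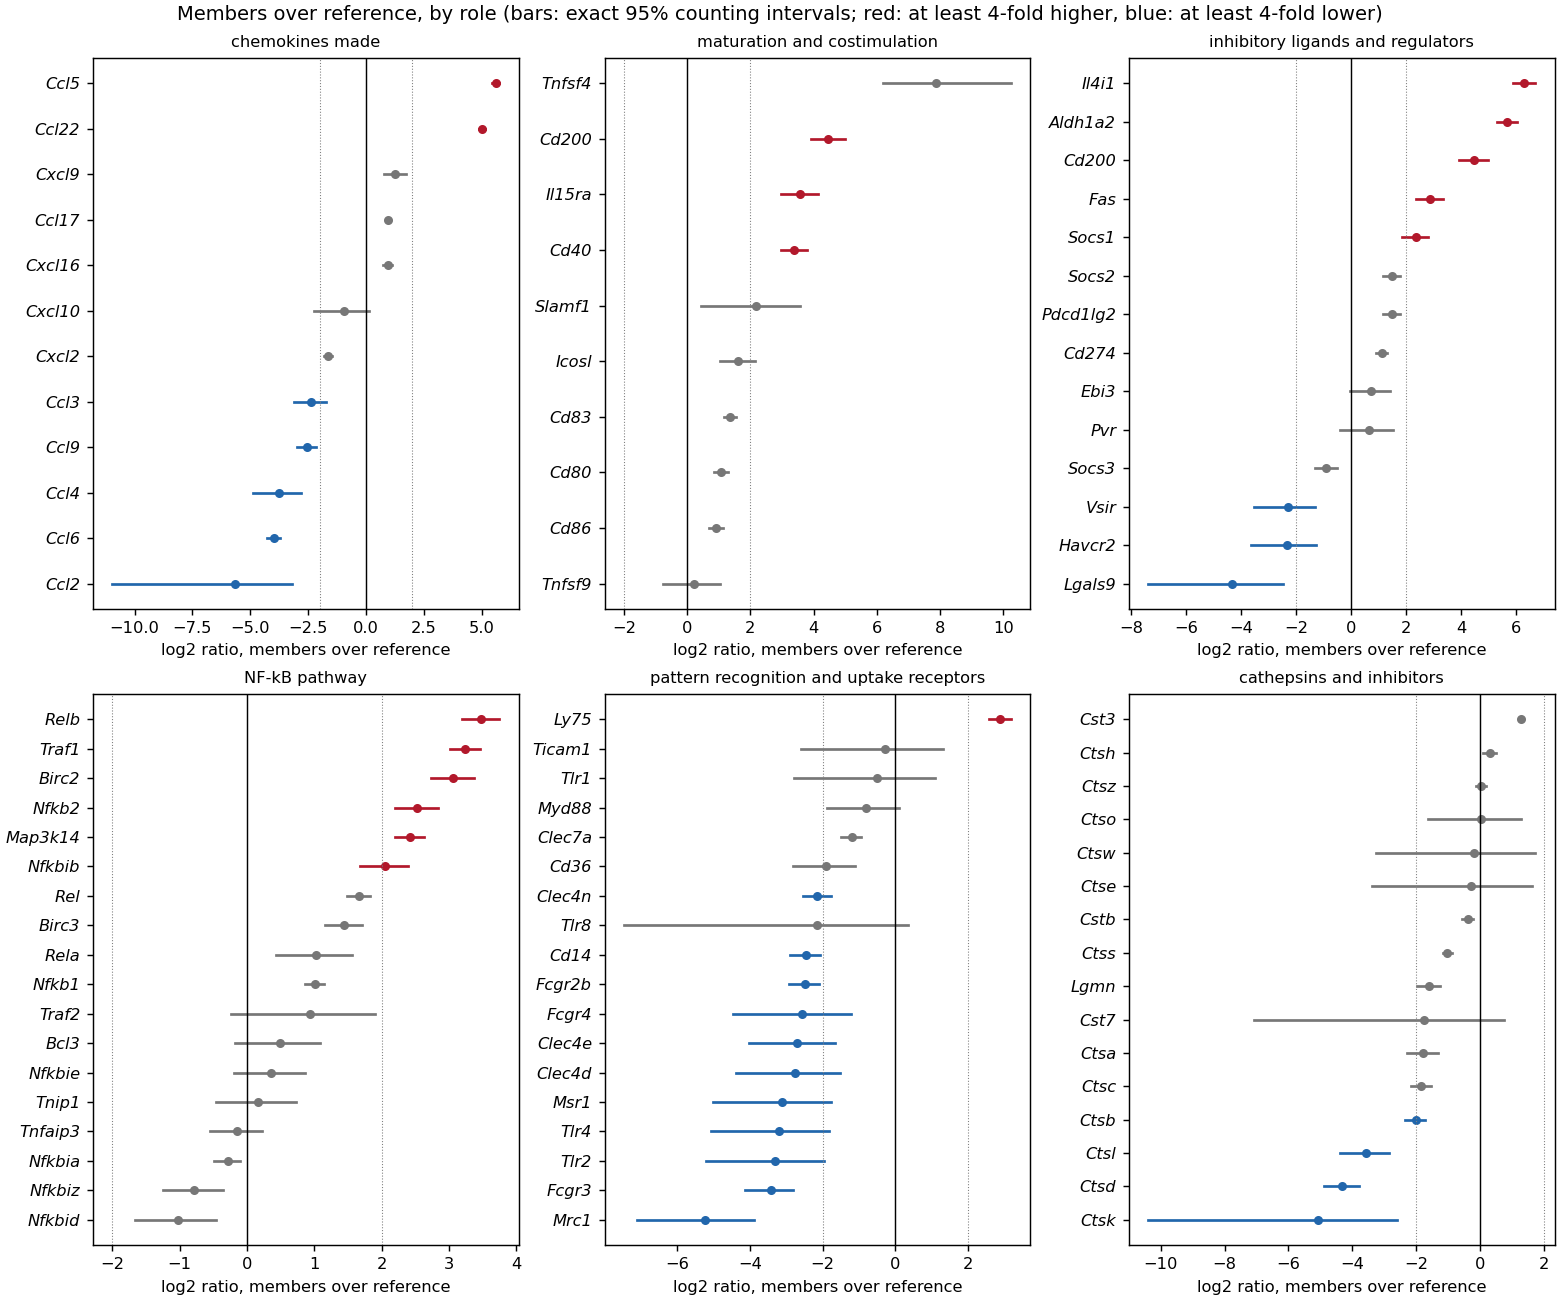
Log2 ratio of pooled CPM, members over reference, for genes of 6 lists ordered by ratio; points are ratios, bars exact 95% counting intervals and dotted lines 4-fold either way, with called genes coloured. Genes at 0 UMIs in members, such as Fcgr1, have no finite ratio and are not drawn. Il4i1, Aldh1a2, Cd200, Ccl5 and Ccl22 lie far to the right, Cd274 and Pdcd1lg2 between 0 and the dotted line, and most uptake receptors and several cathepsins to the left.

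Of 11 measured cytokine genes 1 was higher and 2 lower, with a median log2 ratio of -0.63. Over all genes tested 1.71% were higher and 3.56% lower. The higher gene was Il12b, the shared subunit of interleukins 12 and 23, and it rested on 3 cells. Of its 38 UMIs 31 were in 1 cell, and without that cell its level was 17.0 CPM in place of 91.1 CPM. The partner subunit Il12a had 0 UMIs and Il23a had 4. Il10 and Il27 also had 0 UMIs in members. Tgfb1 stood at 69.5 against 316 CPM (log2 ratio -2.18, -2.76 to -1.66) and Il1a at 14.4 against 137 CPM. Tgfb1 lost its call with the mean of per-cell CPM. Among 18 cytokine receptors 3 were higher and 2 lower. Il2ra, the high-affinity chain of the interleukin 2 receptor, stood at 83.9 CPM (58.4 to 117) in members, 6.05 CPM in the reference and 122 CPM in T cells. Tnfrsf4 (OX40) had a log2 ratio of 2.73 (2.10 to 3.31), with 379 CPM in T cells, and lost its call with doublets removed. Both calls were lost with at least 5 UMIs of H2-Aa. The 6 T cell markers outside the rule summed to 16 UMIs in members, as given beside Ccl5 above, and their part in these 2 genes was not tested. Csf1r, the macrophage growth factor receptor, was lower, at 9.59 against 270 CPM, as was Tgfbr2.

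Genes of the NF-kB pathway had 6 of 18 measured genes higher and 0 lower, with a median log2 ratio of 1.01. The pathway has a classical arm through p50 and RelA and an alternative arm, in which the kinase NIK (Map3k14) leads to p52 (Nfkb2) and RelB. Relb was at 0, 3 and 12 UMIs in the lowest, median and highest member, read in 43, and stood at 386 CPM (329 to 450). The reference held it at 34.8 CPM, cDC1-gated cells at 20.5 CPM and cDC2-gated cells at 34.1 CPM. Its partner Nfkb2 stood at 240 CPM (195 to 292) against 41.7 CPM, and Map3k14 at 535 CPM (467 to 610) against 100.4 CPM. Traf1, an adaptor of TNF family receptors, and Birc2, a ubiquitin ligase, had log2 ratios of 3.24 (3.01 to 3.46) and 3.05 (2.74 to 3.36). Nfkbib, an inhibitor, had a ratio of 2.05 (1.68 to 2.40). The classical members differed less, with Rel at 1.66 (1.48 to 1.83), Rela at 1.02 (0.44 to 1.56) and Nfkb1 at 1.00 (0.86 to 1.14). Nfkbia, Tnfaip3 and Tnip1, which limit the pathway, had ratios of -0.29, -0.16 and 0.16. Map3k14 and Nfkbib fell short of 4-fold against the pooled dendritic cell gates, at 1.79 and 1.91.

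Promoters of these genes are shown because 6 of the list were higher and NF-kB factors bind a short DNA motif. Windows of 250 bases before to 50 after each gene start, from the RefSeq table of build GRCm38.p6, matched 15 of the 18 genes by symbol. On either strand, 7 of the 15 (46.7%) held GGGANTTCC, as such or with 1 more T before its CC, where N is any base. The share was 2.38% over all 27025 listed genes, 3.41% over the matched genes tested against the reference, 3.29% over 152 matched higher genes and 2.05% over 293 matched lower genes. The share among higher genes was thus near the background. Of the 7 list genes with the motif, Nfkb2 alone was called higher, and the others were not called. From the 7, 3 are printed 5' to 3' on the gene's strand, with the motif in capitals: Nfkb2, Rel and Nfkbia. They lie at chr19:46304487-46304786 (+), chr11:23770920-23771219 (-) and chr12:55492598-55492897 (-), with the first motif base at -39, -91 and -29 from the start. Nfkb2 has 3 windows in the table, of which the first is shown. Its capitals match GGGANTTCC on both strands and count as 2 overlapping matches.
Nfkb2: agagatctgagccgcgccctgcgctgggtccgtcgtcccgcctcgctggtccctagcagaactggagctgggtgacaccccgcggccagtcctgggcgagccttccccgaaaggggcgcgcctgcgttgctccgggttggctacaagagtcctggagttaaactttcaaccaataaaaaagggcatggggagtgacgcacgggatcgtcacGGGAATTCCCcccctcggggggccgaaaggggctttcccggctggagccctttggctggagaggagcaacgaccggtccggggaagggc
Rel: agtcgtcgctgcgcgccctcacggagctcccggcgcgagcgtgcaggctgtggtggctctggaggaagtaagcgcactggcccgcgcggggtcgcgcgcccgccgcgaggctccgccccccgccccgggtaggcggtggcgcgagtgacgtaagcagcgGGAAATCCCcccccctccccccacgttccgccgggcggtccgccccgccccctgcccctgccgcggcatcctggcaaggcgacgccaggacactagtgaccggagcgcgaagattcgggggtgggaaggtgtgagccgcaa
Nfkbia: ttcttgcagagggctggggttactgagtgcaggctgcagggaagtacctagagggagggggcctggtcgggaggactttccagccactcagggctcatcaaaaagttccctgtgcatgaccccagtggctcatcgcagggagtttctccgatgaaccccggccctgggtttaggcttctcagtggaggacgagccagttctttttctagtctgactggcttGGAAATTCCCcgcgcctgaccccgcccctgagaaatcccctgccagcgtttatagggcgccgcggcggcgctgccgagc
A match is a stretch of letters and not a measured binding site.

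MHC class II genes were within 4-fold of the reference, with 2 exceptions. Of 12 measured genes outside the rule 0 were higher and 2 lower, with a median log2 ratio of -0.36. H2-Aa was at 2, 20 and 198 UMIs in the lowest, median and highest member. H2-Eb1 stood at 3807 against 3408 CPM, and Cd74, the invariant chain, at 12829.7 against 12766 CPM. H2-Ab1 stood lower, at 2913 against 4815 CPM (-0.73, -0.81 to -0.64), and its ratio ranged from -1.34 to -0.44 over all processing alternatives. Against cDC1-gated cells H2-Eb1 and Cd74 had ratios of -0.57 and -0.53. Members needed at least 2 UMIs of H2-Aa, but the reference and the gated cells at least 5. These ratios thus compare groups cut unequally on a class II gene. The lower genes were H2-DMb1, a chain of the peptide editor H2-M, at 64.7 against 383 CPM (log2 ratio -2.56, -3.17 to -2.02), and Marchf1, the ligase that marks surface MHC class II and CD86 for degradation. Marchf1 had 3 UMIs in all members, a ratio of -3.92 (-6.20 to -2.37), and was lower against both dendritic cell gates. H2-DMb2, of the same list, went the other way from H2-DMb1. It had 75 UMIs in 23 members and a log2 ratio of 1.11, short of the call. Ciita, the master regulator of the genes, stood at 50.3 against 91.6 CPM in the reference and 286 CPM in cDC1-gated cells.

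MHC class I genes had 2 of 15 higher, 0 lower and a median log2 ratio of 1.16, against -0.16 over all genes tested. Psme2, a subunit of the proteasome activator PA28, stood at 1323 CPM (1215 to 1438) against 313 CPM, and Nlrc5, the class I transactivator, at 127 against 24.4 CPM. H2-K1 stood at 2205 against 804 CPM and B2m at 2764 against 1612 CPM. Over cDC1-gated cells the list had 0 higher genes, 1 lower gene (Pdia3, a chaperone of class I loading) and a median of 0.46. Tap1 was 141 CPM in members and 225 CPM in those cells. Psme2 and Nlrc5 fell short of the call with the pooled dendritic cell gates as reference, each at 1.91, and Psme2 also with the mean of per-cell CPM.

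Genes that define dendritic cells marked the members, without placing them clearly with either subset. Of 16 transcription factors and receptors 6 were higher and 2 lower, with a median log2 ratio of 0.97. Flt3 stood at 185 CPM (146 to 231) in members, 28.0 CPM in the reference and 0.792 CPM in macrophage-gated cells, and was read in 27 members. Zbtb46, a factor particular to conventional dendritic cells among myeloid cells, stood at 105 CPM (76.6 to 142) against 18.5 CPM, 136 CPM in cDC1-gated and 13.8 CPM in cDC2-gated cells. Batf3, needed for cDC1 development, stood at 340.4 against 77.9 CPM. Over cDC1-gated cells the ratios of Flt3, Zbtb46 and Batf3 were -0.58 (-0.97 to -0.19), -0.36 (-0.91 to 0.16) and 0.52 (0.19 to 0.85). Stat4, which transmits interleukin 12 signals, was higher against every dendritic cell gate, at 235 CPM (191 to 286) against 15.3 CPM in the reference, with 174 CPM in T cells. The 6 T cell markers outside the rule summed to 38.4 CPM in members, and their part in Stat4 was not tested. Etv3 and Nr4a3 completed the higher genes, and Zeb2 and Klf4, factors of the monocyte and cDC2 lines, were lower. With the pooled dendritic cell gates as reference Flt3, Zbtb46, Batf3, Etv3 and Nr4a3 fell short of 4-fold, at 1.77, 1.58, 1.67, 1.97 and 1.85. Irf8 stood at 268 CPM against 1245 CPM in cDC1-gated cells, and Irf4 at 64.7 CPM against 68.7 CPM in cDC2-gated cells.

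Several genes of the subsets were not detected. Xcr1, Tlr3, Cd209a and Cx3cr1 had 0 UMIs in all 51 members. Against the reference Cd209a was at least 6.26-fold lower, from a floor of 3 counts over the group, while the bounds of the others fell short of 4-fold. Clec9a had 4 UMIs and Clec10a 2. Wdfy4, which cDC1 need for cross-presentation, stood at 55.1 CPM against 1617 CPM in cDC1-gated cells, and Naaa at 16.8 against 1506 CPM. Of the cDC2 genes Mgl2 had 35 UMIs, 20 of them in 1 cell, in 9 members. Ccl17 was read in all 9 and in 33 of the 42 members without Mgl2. A member was given a trace of a subset where 6 genes of that subset summed to at least 2 UMIs. By this rule 4 members had a cDC1 trace alone, 13 a cDC2 trace alone, 3 both and 31 neither. Aldh1a2 was 771 CPM in members with a cDC2 trace alone and 455 CPM in those with neither, but 54 of the 104 UMIs of the former were in 1 cell. Without that cell their level was 423 CPM, below 455 CPM, and the cells with neither trace stood at 391 CPM without their own highest cell. Aldh1a2 had 0 UMIs in the 7 with a cDC1 trace or both. Ccl5 stood at 616 CPM with a cDC2 trace alone and at 3545 CPM with neither, or at 523 and 2679 CPM without the highest cell of each. All 155 UMIs of Ccl5 in the 4 cells with a cDC1 trace alone were in 1 cell. Deeper cells collect traces more easily, and the median depth was 10584 UMIs with a cDC2 trace and 7018 with neither.

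**Figure D3:**
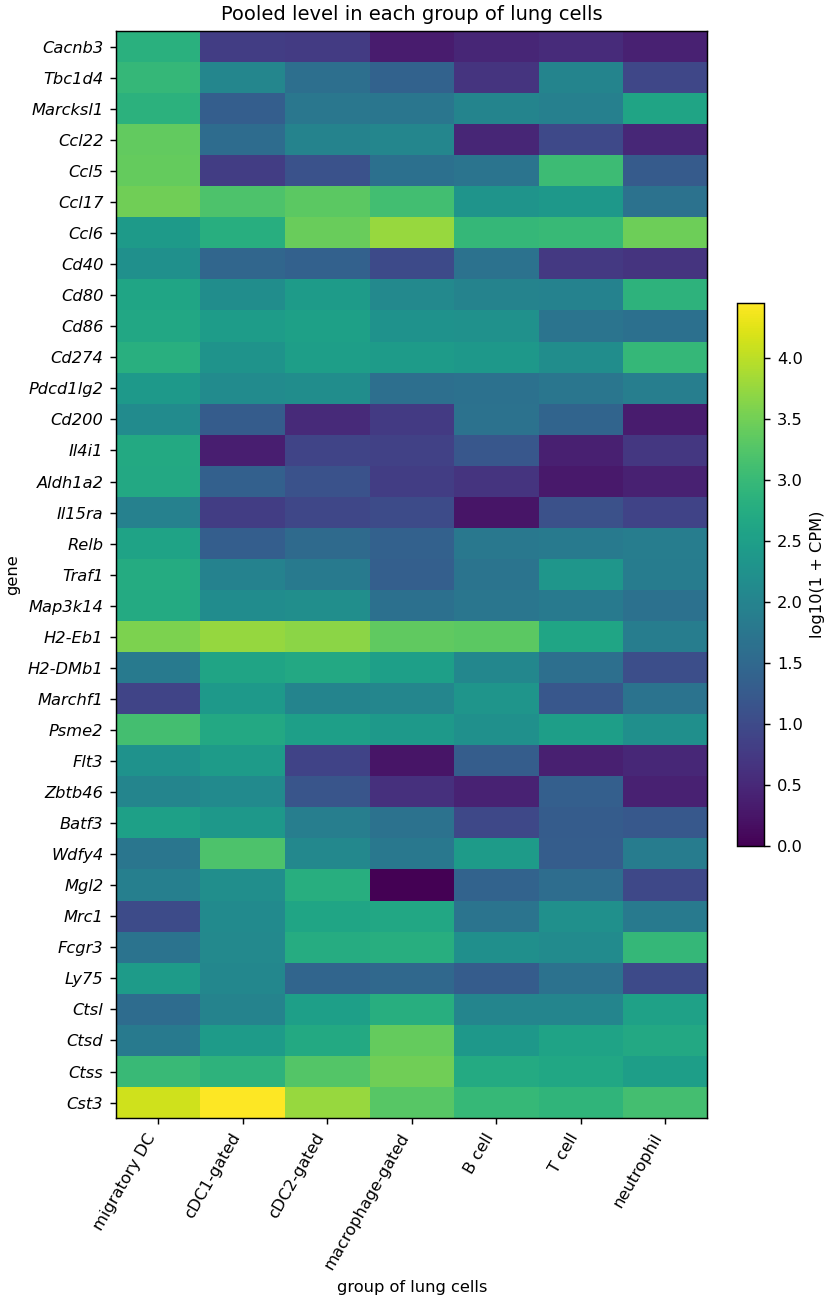
Pooled level of named genes, as log10(1 + CPM), in members and the 6 comparison groups of lung cells. Members share high Cst3, Flt3, Zbtb46 and Batf3 with cDC1-gated cells, hold less Wdfy4, and stand alone for Cacnb3, Ccl22, Il4i1 and Aldh1a2.

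Uptake and sensing receptors were the list with the most lower genes. Of 21 measured 12 were lower and 1 was higher, with a median log2 ratio of -2.47. Over all genes tested 3.56% were lower and 1.71% higher, with a median of -0.16. Mrc1, the mannose receptor, stood at 9.59 against 363 CPM in the reference and 134 CPM in cDC1-gated cells, a ratio of -5.24 (-7.12 to -3.89) over the reference. The Fc receptors Fcgr2b and Fcgr3 stood at 120 and 47.9 CPM against 677 and 519 CPM, and Fcgr1, at 0 UMIs, was at least 8.57-fold lower. Tlr2 and Tlr4 had 4 UMIs each, with ratios of -3.32 and -3.20. The exception was Ly75 (DEC-205), a lectin-type uptake receptor of dendritic cells, at 276 CPM (228 to 331) against 37.5 CPM and 116 CPM in cDC1-gated cells. Against cDC1-gated cells, which held fewer UMIs in all, 11 genes were measured, of which 2 were lower and 0 higher, with a median of -1.09. Against cDC2-gated cells 9 of 19 were lower. Clec4d, Clec4e and Fcgr4 lost their calls with the pooled dendritic cell gates as reference, and Cd14, Clec4n and Clec4e with at least 1 UMI of Fscn1. The macrophage markers summed to 810.2 CPM in members and 11073 CPM in the reference, and their part in these ratios was not tested.

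Cathepsins, the proteases of the endosome and lysosome, were lower in part. Of 17 measured cathepsin and inhibitor genes 4 were lower and 0 higher, with a median log2 ratio of -1.03. Ctsd stood at 67.1 CPM (44.6 to 97.0) against 1332 CPM in the reference, 275 CPM in cDC1-gated and 512 CPM in cDC2-gated cells. Ctsl, the cathepsin L of the series title, had 15 UMIs in 10 members, at most 3 in a cell. It stood at 36.0 CPM (20.1 to 59.3) in members, 424 CPM in the reference, 623 CPM in macrophage-gated, 327 CPM in cDC2-gated and 95.9 CPM in cDC1-gated cells. Its log2 ratio was -3.56 (-4.40 to -2.84) over the reference and -1.41 over cDC1-gated cells. Ctsb and Ctsk were the other lower genes and lost their calls with the pooled dendritic cell gates. Ctsb also lost its call with the mean of per-cell CPM and without the deepest member. Ctss, the cathepsin that trims the invariant chain, stood at 1048 against 2134 CPM and 756 CPM in cDC1-gated cells. Ctsz and Ctsh had ratios of 0.03 and 0.31. Cst3, cystatin C, an inhibitor of these proteases, was read in 49 members at 0, 81 and 430 UMIs in the lowest, median and highest. It stood at 13664 CPM in members, 5607 CPM in the reference and 28434 CPM in cDC1-gated cells.

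Some cell cycle genes were low in members. Of 14 such genes 4 were lower and 0 higher, with a median log2 ratio of -1.79. Over all genes tested 3.56% were lower and 1.71% higher, with a median of -0.16. Top2a had 1 UMI, while Birc5 and Ube2c had 0 and were at least 5.28-fold and 6.33-fold lower. Stmn1, the other lower gene, had 7 UMIs and lost its call with the mean of per-cell CPM. Mki67 had 3 UMIs and was not called. Mcm6, Mcm5, Mcm2, Tyms and Pcna were nearer the reference, at log2 ratios of 0.19, -0.32, -0.73, -0.80 and -0.98. Survival genes had 0 of 11 called, and Bcl2a1b and Bcl2a1d, which are near-identical copies whose reads can be split between them, had ratios of 1.32 and 1.57. Interferon-stimulated genes had 1 of 16 higher, Gbp2, at 149 against 33.0 CPM, and 24 of its 62 UMIs were in 1 cell. Without that cell it stood at 93.6 CPM, and with the pooled dendritic cell gates as reference it lost its call, at 1.91. Genes that respond to tissue dissociation had 0 of 12 called, with a median of -1.30. The counts called in the survival, interferon-stimulated and dissociation lists are near the shares over all genes tested. They are not read as a result about these lists. Fos stood at 129 against 510 CPM in the reference and 188 CPM in cDC1-gated cells.

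Over the 51 cells, Spearman correlations of depth-scaled levels were computed for 1225 pairs of 50 genes and had a median of 0.06. The highest were between Cd74 and H2-Eb1 (0.82), H2-Ab1 and H2-Eb1 (0.81) and Psme1 and Psme2 (0.80), which are genes of shared complexes. Cacnb3 and Myo1g followed further down at 0.64. The lowest were between Nr4a3 and Psmb8 (-0.53), Nr4a3 and Psme2 (-0.50) and Ccl5 and H2-Ab1 (-0.50). All cells share 1 library, and depth itself correlated with Aldh1a2 (0.45), Cd74 (0.45) and Ccl17 (0.43). These values are a description of the cells and carry no test.

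**Figure D4:**
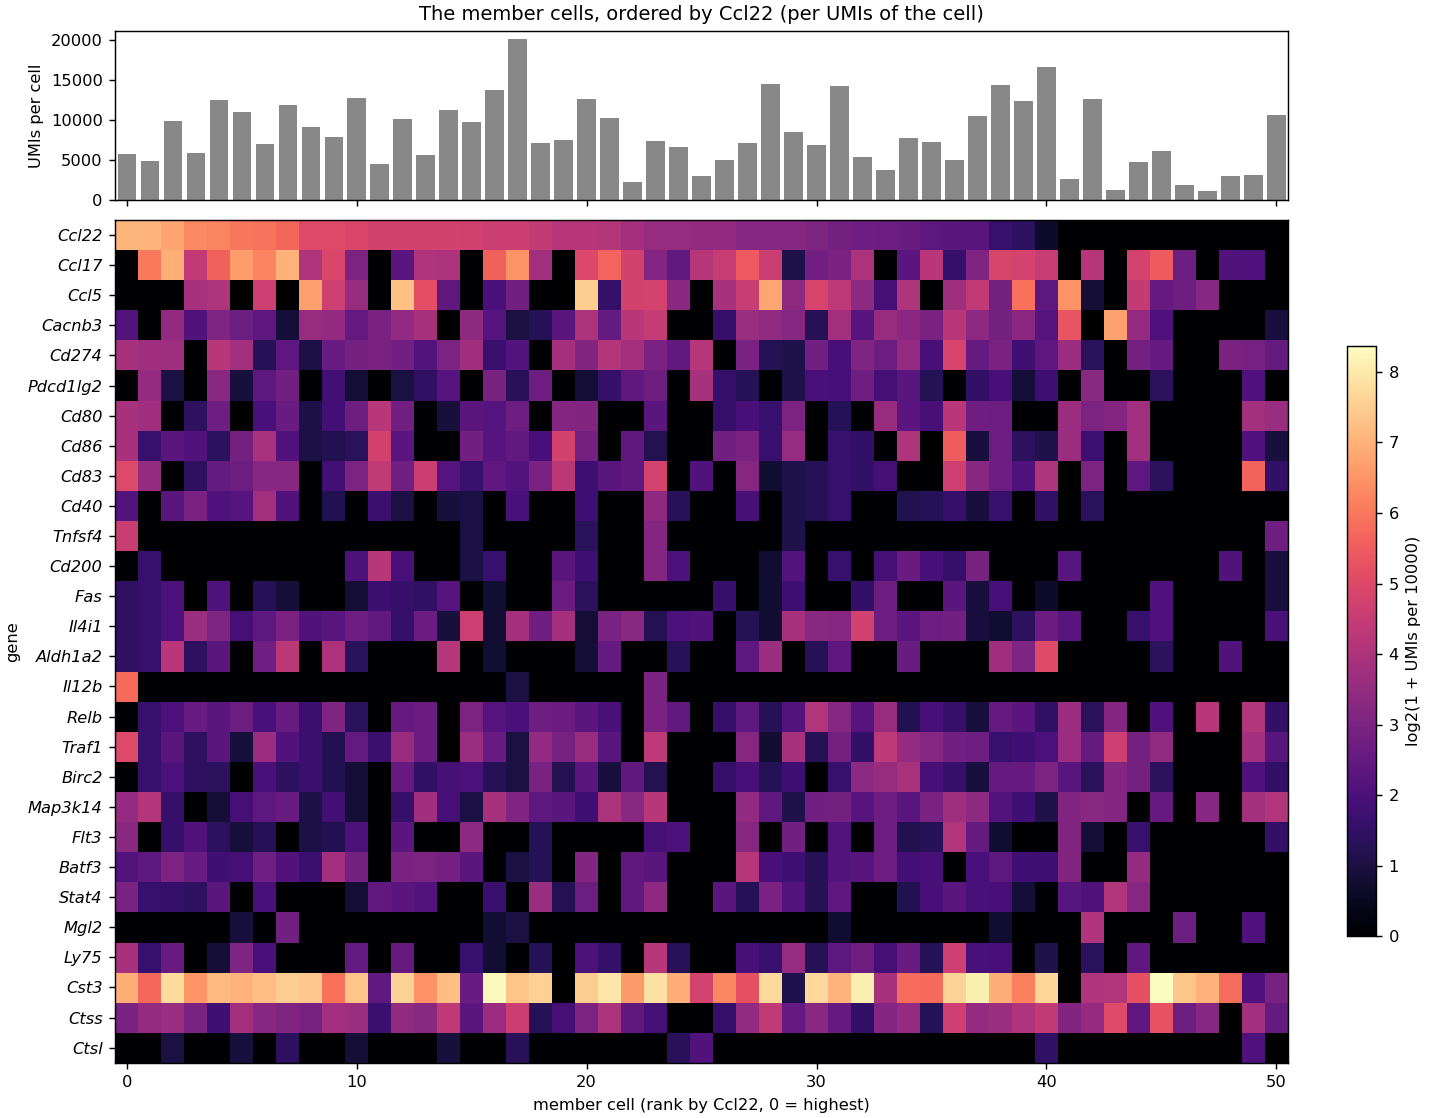
The 51 members ordered by Ccl22, with UMIs per cell above and log2(1 + UMIs per 10000 UMIs of the cell) of the genes named on the axis below. Cst3 is high in most cells, Ccl5 and Ccl17 vary widely, and Il12b and Tnfsf4 are seen in 3 and 6 cells.

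Cells near the limits of the rule are given without a test. Inside it, the 4 members with exactly 2 UMIs of Fscn1 held Ccl22 at 4138 CPM and Cacnb3 at 931 CPM, against 2298 and 671 CPM in the 47 with 3 or more. These 4 cells were uneven: 63 of their 80 UMIs of Ccl22 and 13 of their 18 of Cacnb3 were in 1 cell each, and without it the levels were 1171 and 276 CPM, below those of the 47. Outside, 4 cells had exactly 1 UMI of Fscn1, with Ccl22 at 1873 CPM and 0 UMIs of Cacnb3 and Cd274. A further 18 cells missed only the H2-Aa minimum, at a median of 3047.5 UMIs. They held Ccl22 at 2709 CPM (1755 CPM without its highest cell), Cacnb3 at 1297 CPM (1027 to 1616), Il4i1 at 279 CPM (138 CPM without its highest cell) and Cd274 at 673 CPM. The 16 cells that missed only Ccr7 held Ccl22 at 669.7 CPM and Cacnb3 at 69.0 CPM, or 371 and 21.1 CPM without the highest cell of each gene. The 85 cells with Ccr7 and H2-Aa but no Fscn1 held them at 662 and 36.0 CPM, or 344 and 13.5 CPM without the highest cells. The 11 cells with a UMI of Cd3e or Cd79a were deeper, with a median of 10501 UMIs, and held Ccl22 at 555 CPM.

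**Figure D5:**
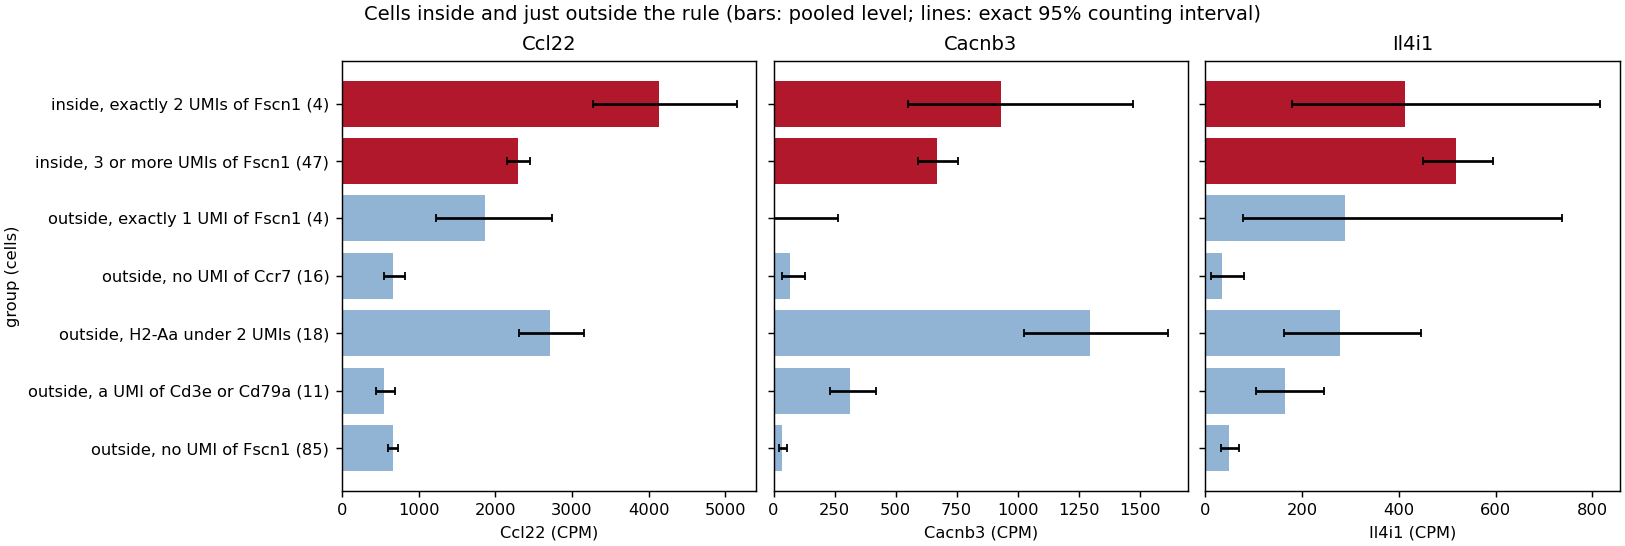
Pooled level of Ccl22, Cacnb3 and Il4i1 (CPM) in cells inside the rule and in cells that missed 1 condition; bars are pooled levels, lines exact 95% counting intervals, and the number of cells is in brackets. Cells that missed the H2-Aa minimum have Cacnb3 at 1297 CPM, while those without Ccr7 or Fscn1 have at most 69.0 CPM.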

How the data were processed

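Levels of 55416 genes were measured in 2 single-cell 5' RNA libraries, 1 from lung and 1 from gastrocnemius muscle. The authors deposited unnormalized whole-number UMI counts for each gene and barcode, with no barcode under 500 UMIs. Per the submitters' processing notes they were made with Cell Ranger 7.0.1 on build GRCm39. The annotation release, intron counting and cell calling are not given in the sources used here. Members, markers, gene lists and alternatives were chosen with earlier results of these data known.

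Counts were summed over the cells of a group and divided by the group's total UMIs to give CPM. Levels have exact Poisson intervals, ratios exact conditional binomial intervals and shares exact Clopper-Pearson intervals, all at 95% and for counting error only. A gene with 0 counts in a group was bounded from 3 counts over that group. A list gene was measured where members and the compared group held at least 30 counts together. The rule genes were left out of all counts. Named genes were those of the lists at least 4-fold apart or among the most abundant of a list, the markers, and the 10 with the largest and smallest ratios. 1 of the latter is not reported here. Other list genes named, short of 4-fold, were picked after their values were seen.

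Doublet removal is not mentioned in the labels. The main values keep all cells. An alternative removed the top 0.8% per 1000 barcodes by the share of simulated doublets among the nearest neighbours in 30 principal components. That took 556 lung barcodes (6.79%), 2 of them members. Counts were also simulated with counting error only and no spread between cells. The 200 changed genes were drawn from those with enough expected counts in members for a call to be possible. Of these the call found 100% of raised and 89% of lowered genes at 8-fold (10894 genes in all), and 0% and 2% at 2-fold (10921 genes in all). Calculations used Python 3.11.15, numpy 2.4.6, pandas 2.3.3, scipy 1.17.1, scanpy 1.11.5, scikit-learn 1.9.0 and, for TMM scaling alone, edgeR 4.0.16 in R 4.3.3. The promoter table is of build GRCm38.p6 and was joined by symbol. Alternatives covered the rule, the reference, depth, scaling, doublets and the count filter. The reference without Ccr7, the members without the deepest cell and the smaller groups without the cell highest for a gene were added after the data were seen.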

Additional observations from a re-analysis of the deposited data

How the results depend on the processing

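No paired analysis was possible because there was 1 library per tissue and the result comes from no test. The main counts were 187 higher and 389 lower genes. Under 16 alternatives no gene called in the main comparison was called the other way. Settings that leave fewer counts gave fewer calls: 60 higher and 112 lower after thinning to 2000 UMIs (48 members, 1037 reference cells), and 93 and 145 with the 26 members at or below the median depth. The mean of per-cell CPM weights shallow cells equally, and its calls were made without the condition of an interval beyond 2-fold. It gave 201 higher and 818 lower, so that 19.7% of called genes were higher in place of 32.5%. How much of this came from the looser call was not tested. A minimum of 10 counts, for testing and for the higher group, gave 321 higher and 389 lower genes (45.2% higher), and no filter 512 and 389 (56.8%). In the other alternatives the counts stayed between 149 and 206 higher and between 360 and 408 lower, and members numbered 38 to 55. The lowest of these higher counts came with at least 5 UMIs of H2-Aa in members, which shared 140 higher genes with the main set. TMM scaling gave 184 and 395, and removal of scored doublets 186 and 399. Of 90 called genes of the lists and the top genes, 29 were called under every alternative, and 62 were called under all but thinning and the shallower members. The cause of the other losses was not tested. With 417156 UMIs in members, a gene of 0 counts could still stand at up to 7.19 CPM, the level of 3 counts.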
